A study of Mus musculus with 78 samples.

Results

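The report covers 8 genes for transcription factors and cofactors that are used to define the deep layers of the cerebral cortex: Tbr1, Bcl11b, Fezf2, Foxp2, Tle4, Sox5, Nfia and Nfib. The genes were listed by name, and each was read from the brightest, on average over the 78 arrays, of the probe sets annotated to it. They are 8 of the 18193 genes on the arrays that could be represented in this way, and all 8 passed the filter on low values in every comparison. Total RNA of mouse brain was hybridised to 78 Affymetrix arrays. They make up 26 groups of 3 biological replicates, per the labels, from embryonic day 14 (E14), birth (P0) and postnatal day 14 (P14). Values are log2 intensities after RMA, a method that summarizes the probes of a probe set and normalizes arrays. Every level and difference below is on that scale, and levels of different genes cannot be set against each other because their probes differ.

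The mutants at E14 were Lis1 ko/cko, Lis1 ko/+, Ndel ko/cko, Ndel ko/+, Dcx ko/Y and 14-3-3 ko/ko. At P0 they were Lis1 ko/cko, Lis1 ko/+, Ndel ko/cko, Ndel ko/+, Dcx ko/Y, and Ndel ko/+ and 14-3-3 ko/ko on an inbred background, and at P14 Lis1 ko/cko, Lis1 ko/+, Ndel ko/cko, Ndel ko/+ and a separate group named Ndel ko/+ mix background. The wild types were WT mix background A and WT mix background B at each age, here mixed A and mixed B, and at P0 and P14 a WT inbred background, which the titles give as 129s6. In the allele names ko is a null, cko a conditional allele and Y the male's Y chromosome. The labels name no Cre driver for the cko allele, no brain region and no wild type that belongs to a given mutant. A mutant was therefore compared with both mixed wild types, and a call needed both differences to point one way.

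Deep-layer neurons are the first excitatory neurons that the cortex makes, and they send axons out of the cortex, to the thalamus, brainstem and spinal cord. FEZF2 directs the subcerebral fate and acts upstream of BCL11B (CTIP2), while TBR1 specifies layer 6 corticothalamic neurons and represses Fezf2. SOX5 controls the order in which deep-layer types appear, TLE4 is a Groucho-family corepressor of layer 6, and FOXP2 is a forkhead factor of layer 6. NFIA and NFIB are nuclear factor I proteins of cortical progenitors and deep-layer neurons, and both also act in the formation of glia. The products of the mutated genes, LIS1, NDEL1, 14-3-3 epsilon and doublecortin, act on dynein and microtubules in migrating neurons. Several of the 8 genes are also expressed outside the cortex, Bcl11b and Foxp2 in striatal projection neurons and Nfia and Nfib in astrocytes.

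Promoter windows are shown for Tbr1 and Sox5, whose levels separated the P14 groups, and for Fezf2, which differed between the Ndel genotypes at P0. Each holds the 250 bases before a transcript start in RefSeq on GRCm38.p6, read 5′ to 3′ along the gene. The start lies inside the gene's span in each case and may not be its only one. Tbr1 is at chr2:61804203-61804452 on the plus strand, Sox5 at chr6:143947107-143947356 on the minus strand and Fezf2 at chr14:12345866-12346115 on the minus strand. Capitals mark matches on either strand to an NFI core (TTGGC), a SOX core (AACAAT), a T-box core (GGTGTG) or a FOX core (TGTTTAC).
Tbr1: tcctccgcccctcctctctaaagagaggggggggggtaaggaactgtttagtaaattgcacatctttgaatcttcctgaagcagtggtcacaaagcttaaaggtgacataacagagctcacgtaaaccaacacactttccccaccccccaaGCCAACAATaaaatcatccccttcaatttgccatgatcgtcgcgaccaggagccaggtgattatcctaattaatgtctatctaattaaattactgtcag
Sox5: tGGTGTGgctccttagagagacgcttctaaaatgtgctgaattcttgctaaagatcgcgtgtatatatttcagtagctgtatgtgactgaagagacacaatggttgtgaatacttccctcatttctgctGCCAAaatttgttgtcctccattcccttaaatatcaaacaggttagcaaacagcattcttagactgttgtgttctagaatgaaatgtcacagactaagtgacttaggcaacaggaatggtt
Fezf2: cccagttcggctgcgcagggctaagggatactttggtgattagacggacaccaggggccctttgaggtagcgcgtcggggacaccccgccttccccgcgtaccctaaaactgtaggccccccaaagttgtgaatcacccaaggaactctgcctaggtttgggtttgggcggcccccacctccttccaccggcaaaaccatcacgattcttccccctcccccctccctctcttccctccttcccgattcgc
The capitals in Tbr1 are an NFI core on the minus strand whose 5 letters begin 99 bases before the start, overlapped by a SOX core at 96 bases. Those in Sox5 are a T-box core at 249 bases and an NFI core on the minus strand at 121 bases. None of the 4 motifs is in the Fezf2 window, whose GC content was 61.2%, against 45.2% for Tbr1 and 39.6% for Sox5. Over 32851 promoter windows of that length, 41.5% hold the NFI core, 9.42% the SOX core, 16.3% the T-box core and 3.17% the FOX core. The sequence table held 6 of the 8 genes, and Foxp2 and Nfib had no entry.

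The targeted genes were read first as a check of the labels. Dcx averaged 4.58 ± 0.26 in Dcx ko/Y at E14 and 4.30 ± 0.19 at P0 (SD, n = 3 each). The mixed wild types averaged 12.06 and 12.07 at E14 and 11.84 and 12.03 at P0. Ywhae, the gene of 14-3-3 epsilon, was at 12.68, 12.92 and 9.97 in the E14 arrays labelled 14-3-3 ko/ko, where the mixed wild types averaged 12.99 to 13.06, so replicates 1 and 2 went against their label. Ndel1 averaged 9.82 in brains labelled Ndel ko/cko at E14, 9.45 in Ndel ko/+ and 9.90 to 9.91 in the mixed wild types. Ndel1 was above its wild types in brains labelled Ndel ko/+ inbred at P0 (10.06 against 9.91) and Ndel ko/+ mix background at P14 (10.55 against 10.32 to 10.40). Pafah1b1, which encodes LIS1, averaged 9.84 in Lis1 ko/cko at E14, 10.07 in Lis1 ko/+ and 10.38 to 10.43 in mixed wild types. The E14 arrays labelled 14-3-3 ko/ko averaged 10.14. Among P0 brains, Lis1 ko/cko (10.08) and Lis1 ko/+ (10.01) lay below the mixed A mean (10.51) but above that of mixed B (9.95). P14 means were 10.36 for Lis1 ko/cko and 10.21 for Lis1 ko/+, below both mixed wild types (10.48 and 10.85). Whether these probes lie in the deleted parts is not known here. In the first principal component of all genes, with 38.8% (P0) and 56.6% (P14) of the variance, mixed A and mixed B fell on opposite sides and no group was split. Mixed B shared its side with Ndel ko/cko, Ndel ko/+ and, at P0, Dcx ko/Y, and all other groups of those ages lay with mixed A. The actin 3′ minus 5′ difference, a measure of RNA quality, was 0.122 to 0.214 on the mixed A side and 0.274 to 0.449 on the mixed B side at P0, and 0.497 to 0.956 and 0.627 to 0.717 at P14.

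Over the 26 groups, all 8 genes had their lowest group mean at P14. The highest group mean lay at E14 for Bcl11b, Fezf2, Foxp2, Sox5, Nfia and Nfib, at P0 for Tle4 and at P14 for Tbr1. The medians of the group means at E14, P0 and P14 were 11.44, 10.35 and 9.34 for Nfib, 10.09, 9.35 and 8.23 for Foxp2, and 10.79, 10.66 and 9.45 for Bcl11b. They were 9.42, 8.78 and 8.19 for Sox5, 10.46, 9.78 and 9.50 for Nfia, and 9.25, 8.90 and 8.57 for Fezf2. Tle4 had 9.80, 9.90 and 9.27 and Tbr1 8.78, 8.54 and 8.05. Group means ran from 9.14 in Nfib at P14 Ndel ko/cko to 11.61 in mixed A at E14, and from 7.86 in Tbr1 at P14 WT inbred to 9.22 at P14 Ndel ko/cko. When the groups of a gene were ordered by mean, the arrays of neighbouring groups overlapped in 23 to 25 of 25 pairs. The breaks without overlap lay between P0 and P14 for Bcl11b, Foxp2, Tle4 and Nfib, and within P14 for Sox5, Nfia and Tbr1. Nfib had a further break between P0 Ndel ko/cko and the next group, P0 Lis1 ko/cko, and Fezf2 had none.

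**Figure D1:**
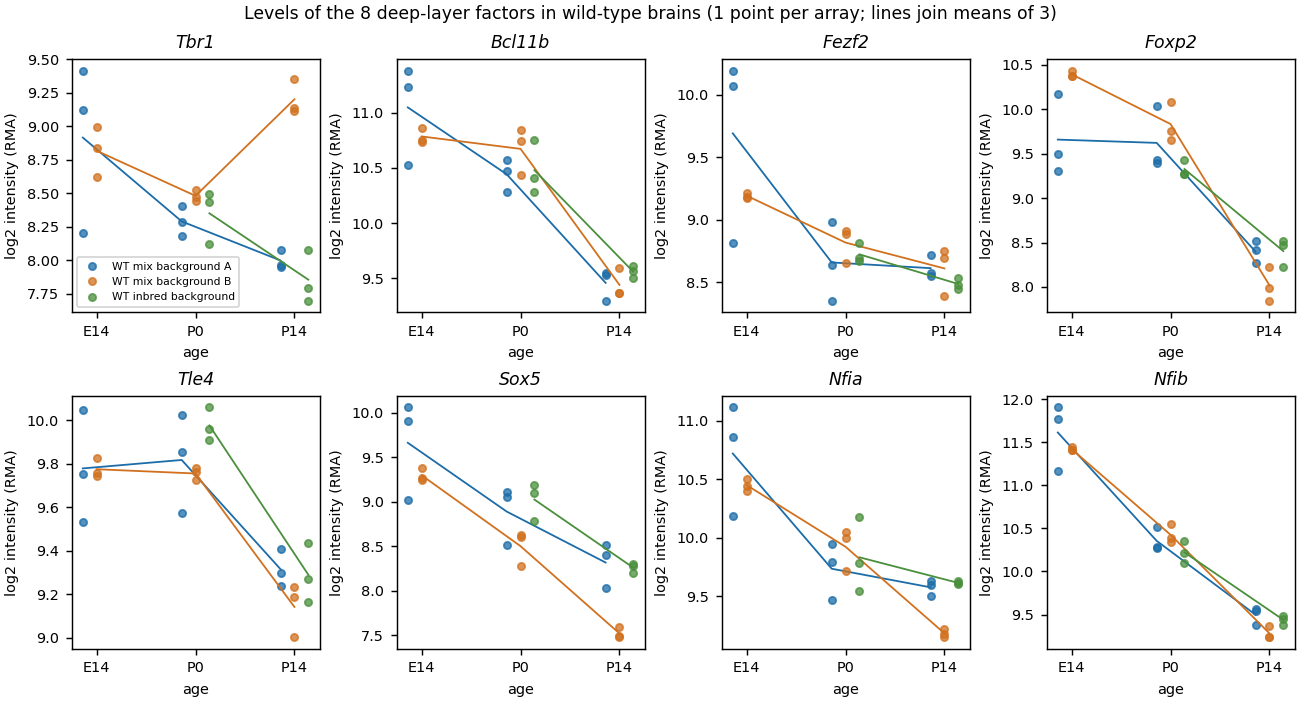
Log2 intensity of each of the 8 genes (y axis) by age (x axis) in wild-type brains, with 1 point per array and lines joining the means of 3 arrays. Nfib, Foxp2, Bcl11b, Sox5 and Tle4 end lowest at P14 in all 3 backgrounds, while the P14 arrays of Tbr1 in mixed B, at 9.11 to 9.36, lie above those of mixed A and the inbred background.

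From E14 to P0 in the mixed wild types, Nfib, Nfia and Sox5 fell, and none of the 8 genes was called higher in its brightest probe set. Nfib, the nuclear factor I member with the largest step, was at 11.16, 11.77 and 11.91 in mixed A and 11.44, 11.41 and 11.41 in mixed B at E14. At P0 it was at 10.28, 10.51 and 10.27 in mixed A and 10.34, 10.55 and 10.39 in mixed B, so that no array of one age overlapped the other in either background. At P14 it was at 9.57, 9.54 and 9.38 in mixed A and 9.24, 9.24 and 9.37 in mixed B, below every P0 array. The overall distribution of values differed more between ages than within them, so steps between ages are given relative to the median gene, which moved by -0.19 from E14 to P0. The adjusted p-values and calls, here and in the later steps between ages, are those of the steps before this shift. Relative to the median gene, the steps of the called genes were -0.94 ± 0.12 for Nfib (SE, limma adjusted p = 4.89e-07), -0.59 ± 0.20 for Sox5 (adjusted p = 0.00201) and -0.57 ± 0.17 for Nfia (adjusted p = 0.0114). The 3 genes called lower of 8 compare with 35% of all genes tested called lower in that step, and with 49.8% called in either direction. The median of the 8 genes was -0.40 relative to the median gene. In RNA of whole tissue, fewer cells of a type and less RNA per cell cannot be told apart.

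Sox5 was at 9.01, 10.06 and 9.91 in mixed A and 9.38, 9.24 and 9.26 in mixed B at E14, and at 9.11, 9.05 and 8.51 in mixed A and 8.27, 8.60 and 8.62 in mixed B at P0. The mixed A arrays overlapped between ages and the mixed B arrays did not. Of its probe sets, 4 of 5 tested were called lower at P0, as were 6 of 6 for Nfia, 5 of 7 for Nfib and 4 of 5 for Foxp2. For Tle4, 1 of 3 probe sets, not the brightest, was called higher (0.46 relative to the median gene, adjusted p = 0.0331). Foxp2 itself, read from its brightest probe set, was not called (-0.11 relative to the median gene, adjusted p = 1). Tbr1 (-0.29, adjusted p = 0.157), Bcl11b (-0.17, adjusted p = 0.653), Fezf2 (-0.51, adjusted p = 0.172) and Tle4 (0.20, adjusted p = 1) were not called either. The Nfia call was lost under quantile normalization over all arrays (adjusted p = 0.234) and without P0 mixed B replicate 1 (adjusted p = 0.0663). Without E14 mixed A replicate 1, Tbr1 (-0.47, adjusted p = 0.0216) and Fezf2 (-0.73, adjusted p = 0.0104) were called as well, which made 5 genes.

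The E14 arrays differed in the level of hindbrain markers, and 6 of the 8 genes differed with it. In 6 arrays the mean level of the hindbrain and spinal cord markers was 4.23 to 4.34, against 4.64 to 6.80 in the other 18. The 6 were replicates 2 and 3 of mixed A, replicates 1 and 3 of Lis1 ko/cko, replicate 1 of Lis1 ko/+ and replicate 2 of the arrays labelled 14-3-3 ko/ko. Fezf2 was at 10.07 to 10.26 in the 6, against 8.61 to 9.41 in the 18, Nfib at 11.61 to 12.06, against 10.81 to 11.45, and Tbr1 at 9.13 to 9.50, against 7.86 to 8.996. Sox5 (9.91 to 10.21, against 8.76 to 9.61) and Nfia (10.74 to 11.12, against 9.84 to 10.57) were likewise higher in the 6 without overlap. Foxp2 went the other way, at 8.50 to 9.50 in the 6 and 10.06 to 10.58 in the 18, and Bcl11b and Tle4 overlapped. Cortical excitatory markers were at 8.97 to 9.20 in the 6 and 8.14 to 8.55 in the 18. Markers of the meninges were at 5.42 to 8.90, against 8.69 to 9.61, and cerebellar markers at 5.30 to 5.57, against 5.71 to 6.19. No test was made between arrays chosen in this way, and the share of all genes that separated them was not counted. In the mixed wild types the hindbrain list was at 4.32 to 6.54 (mixed A) and 4.83 to 5.46 (mixed B) at E14. At P0 that list was lower, at 4.01 to 4.02 and 3.97 to 4.04. Its part in the steps from E14 to P0 was not tested. The first principal component of all genes at E14 held 47.9% of the variance. It put 2 arrays of mixed A, 2 of Lis1 ko/cko, 1 of Lis1 ko/+ and 1 labelled 14-3-3 ko/ko on one side. All other E14 arrays lay on the opposite side, so the split was not particular to the 8 genes. Without the 6 arrays mixed A kept only replicate 1 at E14, so the sizes of the steps are given without a call. Relative to the median gene, the step from E14 to P0 was then -0.72 for Nfib, -0.30 for Nfia, -0.37 for Foxp2 and -0.28 for Sox5.

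**Figure D2:**
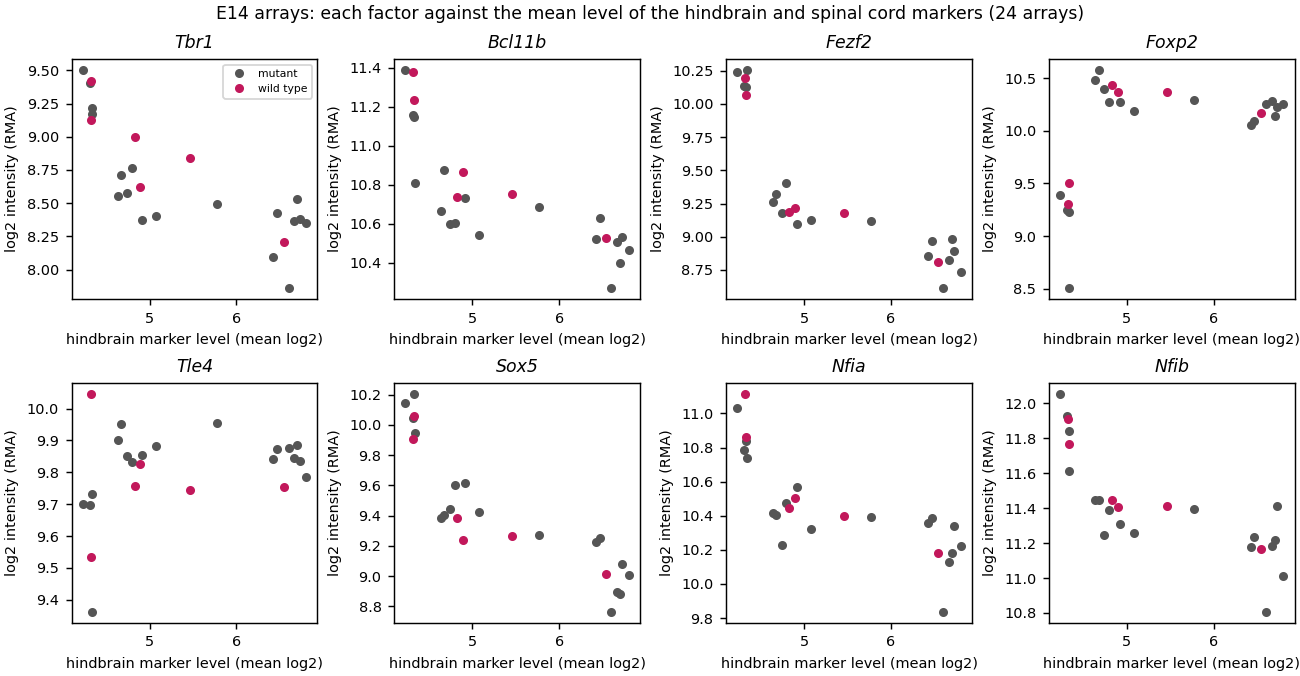
Log2 intensity of each gene (y axis) against the mean log2 level of the hindbrain and spinal cord markers (x axis) in the 24 arrays of E14, with mutants in grey and wild types in magenta. The 6 arrays at marker levels of 4.23 to 4.34 lie highest for Fezf2, Nfib, Tbr1, Sox5 and Nfia, and lowest for Foxp2.

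From P0 to P14, 5 of the 8 genes fell in the mixed wild types, and Foxp2 and Bcl11b fell most. Foxp2 was at 9.43, 9.40 and 10.03 in mixed A and 10.09, 9.76 and 9.65 in mixed B at P0, and at 8.41, 8.27 and 8.51 in mixed A and 8.22, 7.85 and 7.99 in mixed B at P14. Bcl11b was at 10.47, 10.57 and 10.28 in mixed A and 10.43, 10.84 and 10.74 in mixed B at P0, and at 9.30, 9.53 and 9.55 in mixed A and 9.59, 9.37 and 9.36 in mixed B at P14. The ages did not overlap in either background for these genes. Relative to the median gene, which moved by 0.13, the steps were -1.65 ± 0.17 for Foxp2 (limma adjusted p = 2.19e-06), -1.24 ± 0.16 for Bcl11b (adjusted p = 9.65e-06) and -1.13 ± 0.12 for Nfib (adjusted p = 2.33e-06). Tle4 fell by 0.69 ± 0.11 (adjusted p = 0.000436). Sox5 fell by 0.91 ± 0.20 (adjusted p = 0.0153), a call lost when mixed A replicate 1 or 2 of P0 or replicate 1 of P14 was left out (adjusted p up to 0.0939). All genes tested were called lower in 22.1% and called at all in 56.4%, and the median of the 8 genes was -0.80 relative to the median gene. Tbr1 (0.08), Fezf2 (-0.26) and Nfia (-0.58, adjusted p = 0.484) were not called.

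In the inbred wild type, 6 of the 8 genes fell from P0 to P14, against 33.8% of all genes called lower and 71.7% called at all. Foxp2 was at 9.43, 9.28 and 9.28 at P0 and 8.23, 8.51 and 8.47 at P14, and Tle4 was at 9.91, 9.96 and 10.06 at P0 and 9.17, 9.43 and 9.27 at P14, with no overlap of ages. Relative to the median gene, which moved by 0.04, the steps were -0.97 for Foxp2 (adjusted p = 6.25e-05), -0.96 for Bcl11b (adjusted p = 1.7e-05), -0.83 for Nfib (adjusted p = 6.02e-06), -0.81 for Sox5 (adjusted p = 0.00135) and -0.73 for Tle4 (adjusted p = 8.52e-06). Tbr1 fell by 0.54 ± 0.19 (adjusted p = 0.0242), a call that leaving out inbred replicate 2 or 3 of P0 or replicate 1 or 2 of P14 removed (adjusted p up to 0.0919). Fezf2 (-0.28, adjusted p = 0.342) and Nfia (-0.26, adjusted p = 0.249) were not called. Of the probe sets of each gene tested in the mixed wild types, 4 of 4 fell for Bcl11b, 5 of 5 for Foxp2, 7 of 7 for Nfib, 5 of 5 for Sox5, 2 of 3 for Tle4 and 2 of 6 for Nfia. Over the same step 9 of 10 astrocyte markers rose, with a median of 1.75 relative to the median gene, and their part in the steps of the 8 genes was not tested.

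Other genes of deep-layer neurons did not run in 1 direction over these steps. From E14 to P0, 12 of 18 rose and 2 fell, where 14.8% of all genes rose and 35% fell. Crym, a thyroid hormone binding protein, rose by 2.87 relative to the median gene, Ntsr1, the neurotensin receptor of corticothalamic neurons, by 2.61, and Ldb2, a LIM-domain binding cofactor, by 1.86. Otx1, a homeobox factor of layers 5 and 6, fell by 1.61 and Nxph4, a neurexophilin, fell by 0.77. From P0 to P14, 7 rose and 6 fell in the mixed wild types, where 34.3% of all genes rose and 22.1% fell. Cplx3, a complexin of subplate neurons, rose by 3.03, Pcp4, a calmodulin-binding peptide, by 2.27 and Sema3e, a secreted semaphorin, by 1.97. Ntsr1 (-1.19), Zfpm2, a GATA cofactor of corticothalamic neurons (-0.90), and Otx1 (-0.75) fell. In the inbred wild type 6 rose and 10 fell, where 38% of all genes rose and 33.8% fell. Of 12 upper-layer genes, 4 rose and 1 fell from E14 to P0, with Inhba, an activin subunit, at 2.26 relative to the median gene, Lmo4, a LIM-only cofactor, at 1.32, Rorb, a nuclear receptor of layer 4, at 1.05 and Lhx2, a LIM homeobox factor of progenitors, at -1.07. From P0 to P14 in the mixed wild types 1 rose and 5 fell, with Cux2 at 0.69 and Pou3f3 (-1.45), Pou3f2 (-0.95) and Inhba (-0.95) among those that fell.

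Among the paralogues of the 8 genes, Foxp1 rose by 1.28 from E14 to P0 relative to the median gene, and Eomes, a T-box factor of intermediate progenitors and relative of Tbr1, fell by 2.88. Sox6 (-0.99), Sox13 (-0.92) and Tle3 (-0.27) also fell, so that 1 of 13 rose and 4 fell. From P0 to P14 in the mixed wild types Nfic rose by 1.14, and Eomes (-2.91), Fezf1 (-1.79), Tle1 (-1.77), Tle3 (-0.90) and Foxp1 (-0.79) fell. In the inbred wild type 3 rose and 9 fell.

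The mutants gave no call among the 8 genes at any age when both mixed wild types, or the inbred wild type for the inbred mutants, had to be passed. With limma, 0 of 48 tests were called at E14, where 0 had an unadjusted p under 0.05 and 0.0128% of all tests were called. At P0, 0 of 56 were called and 12 had an unadjusted p under 0.05, with 0.788% of all tests called. At P14, 0 of 40 were called and 1 had an unadjusted p under 0.05, with 1.3% of all tests called. A gene whose differences from the mixed wild types pointed opposite ways could not be called. At P14 mixed A minus mixed B was -1.20 for Tbr1, 0.80 for Sox5 and 0.39 for Nfia. For these genes a mutant close to either wild type could hardly be called against both, so their missing calls decide little. The E14 differences ran from -1.10 for Foxp2 in Lis1 ko/cko against mixed B to 0.66 for Foxp2 in Ndel ko/cko against mixed A. Lis1 ko/cko and mixed A each held 2 arrays of low hindbrain level.

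**Figure D3:**
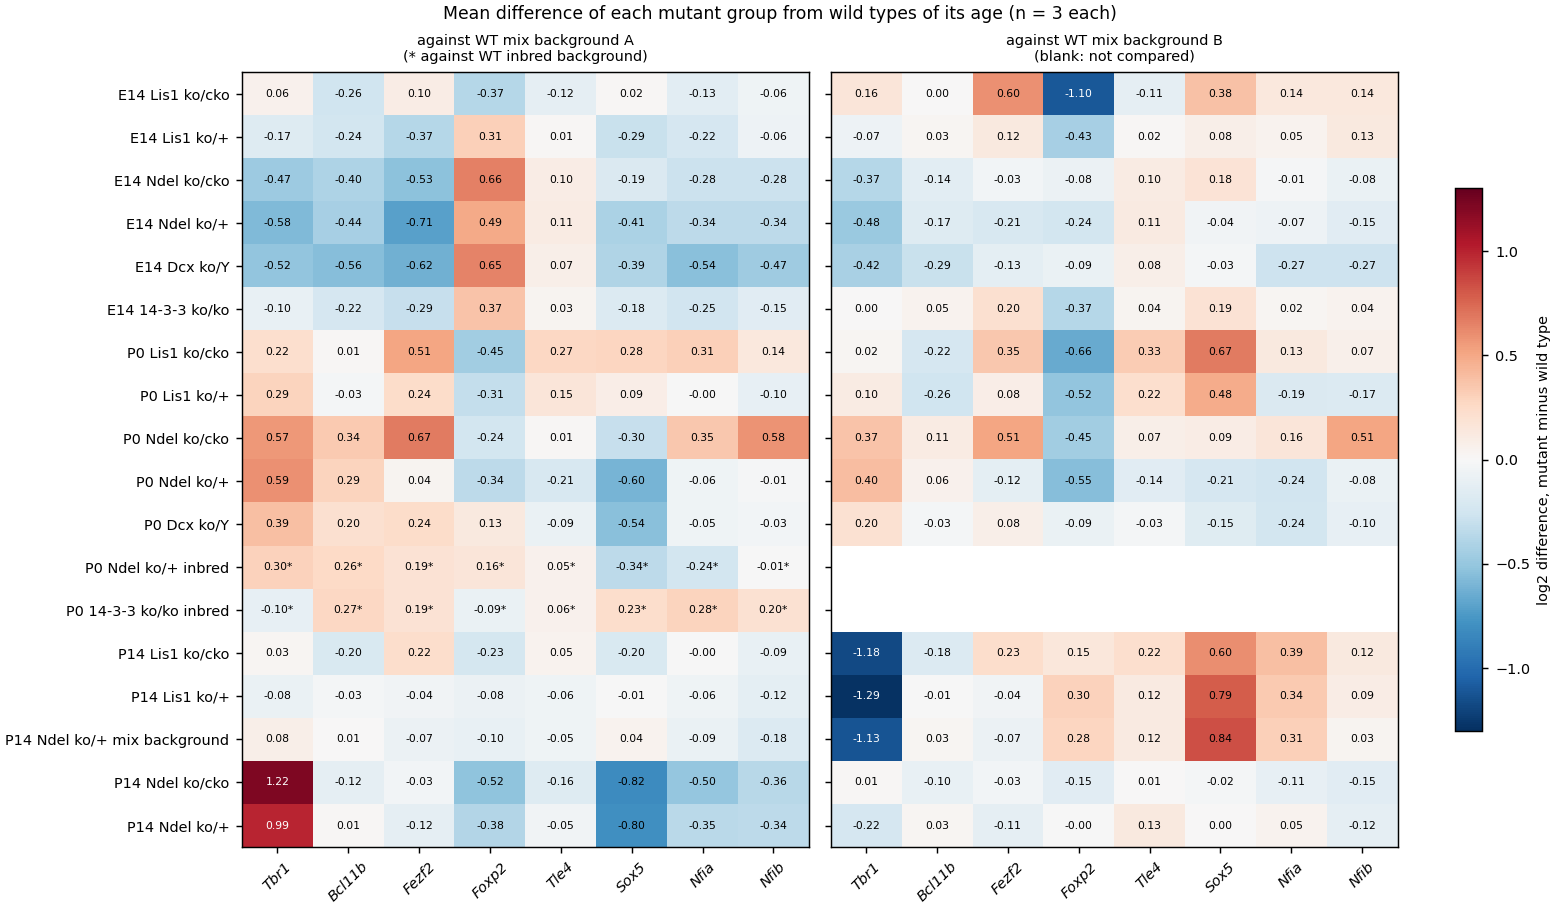
Mean log2 difference of each mutant group (rows) from mixed A (left, with the inbred wild type for the 2 inbred mutants) and from mixed B (right) for each gene (columns), n = 3 arrays in each group. At P14 the large differences of Tbr1 stand in the Ndel ko/cko and Ndel ko/+ rows on the left (1.22 and 0.99) and in the rows of the other 3 groups on the right (-1.29 to -1.13).

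At P0 the nearest to a call were Fezf2 and Nfib in Ndel ko/cko brains, a comparison in which 0.84% of all genes were called. Fezf2 was at 9.42, 9.30 and 9.27 in Ndel ko/cko, against 8.64, 8.98 and 8.35 in mixed A and 8.66, 8.88 and 8.91 in mixed B. Nfib was at 10.86, 10.90 and 11.05 in Ndel ko/cko, against 10.28, 10.51 and 10.27 in mixed A and 10.34, 10.55 and 10.39 in mixed B. Every Ndel ko/cko array lay above every array of both wild types for each gene. The mean difference was 0.59 ± 0.13 for Fezf2 (adjusted p = 0.0599) and 0.55 ± 0.13 for Nfib (adjusted p = 0.0566). Against mixed B alone, which shared a side of the first component with this mutant, Fezf2 was higher by 0.51 (adjusted p = 0.0235) and Nfib by 0.51 (adjusted p = 0.0226), where 1.55% of all genes were called higher. Against mixed A alone they were higher by 0.67 (adjusted p = 0.000356) and 0.58 (adjusted p = 0.0013), where 14.4% were. The actin 3′ minus 5′ difference was 0.385 to 0.449 in Ndel ko/cko, against 0.277 to 0.358 in mixed B and 0.154 to 0.205 in mixed A. Its part in these differences was not tested. Fezf2 was called against both under a stricter filter on low values (adjusted p = 0.0496), and with the replicate number as a block (adjusted p = 0.0428), and both genes were called when every probe set was tested (adjusted p = 0.0432 and 0.0431). Of 9 astrocyte markers tested, Aqp4 (-1.01, adjusted p = 0.0475) and Slc1a3 (-0.56, adjusted p = 0.0174) were called lower in Ndel ko/cko against both wild types. The level of the astrocyte list was 7.66 to 7.80 in Ndel ko/cko, against 8.09 to 8.25 in mixed A and 7.82 to 8.05 in mixed B. The cortical excitatory list was at 8.65 to 8.75 in Ndel ko/cko, against 8.23 to 8.47 in mixed A and 8.28 to 8.40 in mixed B. That list was also above both wild types in Ndel ko/+ (8.59 to 8.65) and Dcx ko/Y (8.52 to 8.58). The part of these lists in the differences of Fezf2 and Nfib was not tested.

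In Lis1 ko/cko brains at P0, where 0.331% of all genes were called, Fezf2 was at 9.20, 9.08 and 9.23 and Foxp2 at 9.11, 9.25 and 9.16. The Fezf2 arrays lay above and the Foxp2 arrays below all arrays of both mixed wild types, as did those of Tle4 above them (10.09, 10.03 and 10.14). None was called against both: Fezf2 differed by 0.43 ± 0.13 (adjusted p = 0.263), Foxp2 by -0.55 (adjusted p = 0.137) and Tle4 by 0.30 (adjusted p = 0.222). Against mixed A alone, its side of the first component, Fezf2 was higher by 0.51 (adjusted p = 0.0366), where 0.424% of all genes were called higher. Of 11 striatal markers, Penk (-0.94, adjusted p = 0.0397), Ebf1 (-0.78, adjusted p = 0.011) and Rarb (-0.77, adjusted p = 0.0362) were called lower in Lis1 ko/cko against both mixed wild types. The mean level of that list was 7.35 to 7.47 in Lis1 ko/cko, against 7.68 to 7.77 in mixed A and 7.85 to 7.95 in mixed B, and its part in the Foxp2 difference was not tested. The cortical excitatory list was at 8.55 to 8.61 in Lis1 ko/cko, against 8.23 to 8.47 in mixed A and 8.28 to 8.40 in mixed B. Its part in the Fezf2 difference was not tested either. In Ndel ko/+ brains, with 4.04% of genes called, Foxp2 (-0.45, adjusted p = 0.134) and Tbr1 (0.50, adjusted p = 0.231) had the largest differences among the genes that pointed one way. At P14 the smallest adjusted p was that of Fezf2 in Lis1 ko/cko (0.23, adjusted p = 0.255), with 6.32% of genes called.

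A few other layer genes were called in these mutants. Cplx3 (0.74 ± 0.17, adjusted p = 0.0161) and Crym (0.62 ± 0.13, adjusted p = 0.0364) rose in Ndel ko/+ at P0. Eomes, named after its values were seen, rose by 0.76 in Ndel ko/cko at P0 (adjusted p = 0.0312). In Lis1 ko/cko at P14, Ccn2, a secreted matrix protein that marks subplate neurons, rose by 1.20 ± 0.19 (adjusted p = 0.00418) and Cux2, a homeobox factor of upper layers, fell by 0.64 ± 0.09 (adjusted p = 0.00813). Tle3, a paralogue of Tle4 and also named after its values were seen, rose by 0.52 in Lis1 ko/cko at P14 (adjusted p = 0.0315). These 6 were all the calls in mutants over the deep-layer, upper-layer and paralogue lists.

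Between genotypes of the same gene, with no wild type in the comparison, Fezf2 and Nfib were higher in Ndel ko/cko than in Ndel ko/+ brains at P0. Fezf2 was at 9.42, 9.30 and 9.27 in Ndel ko/cko, against 8.73, 8.68 and 8.66 in Ndel ko/+. Nfib was at 10.86, 10.90 and 11.05 in Ndel ko/cko, against 10.24, 10.41 and 10.37 in Ndel ko/+. The groups did not overlap, and the differences were 0.64 ± 0.13 for Fezf2 (adjusted p = 0.00354) and 0.60 ± 0.13 for Nfib (adjusted p = 0.0053). In that comparison 5.93% of all genes were called higher and 9.13% called at all. Nfib was higher in 5 of its 7 probe sets, with differences of 0.31 to 0.84 over the 7, and Fezf2 has 1 probe set. The arrays of Nfia (0.40, adjusted p = 0.193), Sox5 (0.31, adjusted p = 0.233) and Tle4 (0.22, adjusted p = 0.148) were also all above those of Ndel ko/+ without a call. Both calls held when any 1 array was left out, and that of Fezf2 was lost when all 78 arrays shared 1 estimate of the spread (adjusted p = 0.109).

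Other lists moved in the same comparison, with genes named here after their values were seen. Eomes (1.36, adjusted p = 3.46e-05) and Foxp4 (0.40, adjusted p = 0.0249) were higher among the paralogues, and Lmo3 (-0.91), Cplx3 (-0.59) and Pcp4 (-0.41) were lower among the 18 other deep-layer genes. Of 11 striatal markers, Penk, Tac1, Rgs9 and Pde10a were lower, and the list's mean level was 7.42 to 7.73 in Ndel ko/cko arrays, against 7.88 to 7.93 in Ndel ko/+. Of 9 astrocyte markers tested, Aqp4, Slc1a2 and Slc1a3 were lower, at list levels of 7.66 to 7.80 in Ndel ko/cko and 7.84 to 8.01 in Ndel ko/+. None of 5 cortical excitatory markers was called, at 8.65 to 8.75 in Ndel ko/cko and 8.59 to 8.65 in Ndel ko/+. The part of these in the result was not tested. Ndel1 averaged 9.56 in Ndel ko/cko and 9.33 in Ndel ko/+, below its wild types (9.74 and 9.89). In the other 5 pairs none of the 8 genes was called between ko/cko and ko/+, where 0.0426% of all genes were called for Lis1 and 0.128% for Ndel at E14, 0.569% for Lis1 at P0, and 8.02% for Lis1 and 0.309% for Ndel at P14. In all, 2 of 48 tests between these genotypes were called and 6 had an unadjusted p under 0.05. The Ndel difference at P0 was not tested against that of Lis1.

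**Figure D4:**
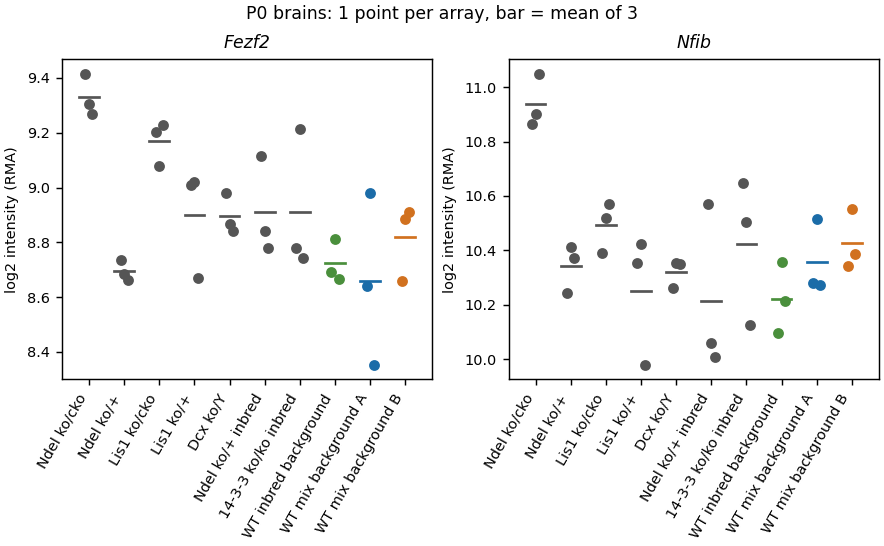
Log2 intensity (y axis) of Fezf2 and Nfib in each P0 group (x axis), with 1 point per array and a bar at the mean of 3. The 3 Ndel ko/cko arrays are the highest of all 30 for each gene, at 9.27 to 9.42 for Fezf2 and 10.86 to 11.05 for Nfib.

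Further calls appeared when only 1 wild type served as control. Against mixed A alone, 0 of 48 tests of the 8 genes were called at E14, 10 of 40 (25%) at P0 and 8 of 40 (20%) at P14, where all genes gave 0.0965%, 21.8% and 24%. Against mixed B alone, 0 of 48, 10 of 40 (25%) and 9 of 40 (22.5%) were called, where all genes gave 0.335%, 13.3% and 33%. At P14 against mixed A, Tbr1 was higher in Ndel ko/cko (1.22) and Ndel ko/+ (0.99), and Sox5 (-0.82 and -0.80) and Nfia (-0.50 and -0.35) were lower. Foxp2 (-0.52) and Nfib (-0.36) were lower in Ndel ko/cko. Against mixed B the calls were in Lis1 ko/cko, Lis1 ko/+ and Ndel ko/+ mix background, in that order with Tbr1 lower in each (-1.18, -1.29 and -1.13), Sox5 higher (0.60, 0.79 and 0.84) and Nfia higher (0.39, 0.34 and 0.31). At P0, Fezf2 and Nfib in Ndel ko/cko, Fezf2 in Lis1 ko/cko and Foxp2 in Ndel ko/+ were called against each mixed wild type alone, and none of these 4 passed when both wild types were required (adjusted p between 0.0566 for Nfib and 0.263 for Fezf2 in Lis1 ko/cko, limma). No P14 mutant was called for any of the 8 genes against the wild type on its own side of the first component. Against mixed A, the shares of all genes called were 13.9% for Lis1 ko/cko, 0.00813% for Lis1 ko/+ and 0.968% for Ndel ko/+ mix background. Against mixed B they were 0.179% for Ndel ko/cko and 0% for Ndel ko/+.

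The mixed wild types themselves differed at P14, and among the 8 genes Tbr1 did so most. Tbr1 was at 7.95, 7.97 and 8.08 in mixed A, against 9.14, 9.36 and 9.11 in mixed B. Sox5 was at 8.03, 8.52 and 8.40 in mixed A, against 7.59, 7.49 and 7.48 in mixed B, and Nfia at 9.59, 9.63 and 9.50, against 9.22, 9.15 and 9.18. None of the 3 genes overlapped between the wild types. The difference, mixed A minus mixed B, was -1.20 ± 0.15 for Tbr1 (adjusted p = 6.86e-07), 0.80 ± 0.13 for Sox5 (adjusted p = 3.35e-05) and 0.39 ± 0.10 for Nfia (adjusted p = 0.00162), where 52.7% of all genes were called. The median gene was 0.14 higher in mixed A, and relative to it the differences were -1.35, 0.65 and 0.25. At P0, with 28.7% of all genes called, none of the 8 genes was called, and Sox5 came nearest (0.39, adjusted p = 0.0626). At E14, with 0.0681% of all genes called, none was called. Over the 3 ages 3 of 24 tests were called, and 6 had an unadjusted p under 0.05.

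All groups of P14 fell to the same sides for these genes. Over the 5 groups and 15 arrays on the mixed A side Tbr1 was at 7.50 to 8.17, against 8.91 to 9.54 over the 3 groups and 9 arrays on the mixed B side. Sox5 was at 8.03 to 8.52, against 7.30 to 7.85, and Nfia at 9.36 to 9.63, against 8.75 to 9.34. The sides did not overlap for any of the 3, and are given without a test because the first component was drawn from these arrays. The 3 genes were those of the 8 called between mixed A and mixed B, where 52.7% of all genes were called. The share of all genes whose sides did not overlap was not counted. The probe sets of a gene did not all go one way. With the brightest one included, 2 of 3 tested for Sox5 and 2 of 4 for Nfia were called higher in mixed A, and the third of Sox5 had a difference of -0.37 (adjusted p = 0.0571). Of the other genes, 2 of 4 probe sets of Bcl11b (by up to 1.16) and 1 of 5 of Foxp2 (0.60) were called higher, and 2 of 7 of Nfib lower, none of them the brightest of its gene.

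**Figure D5:**
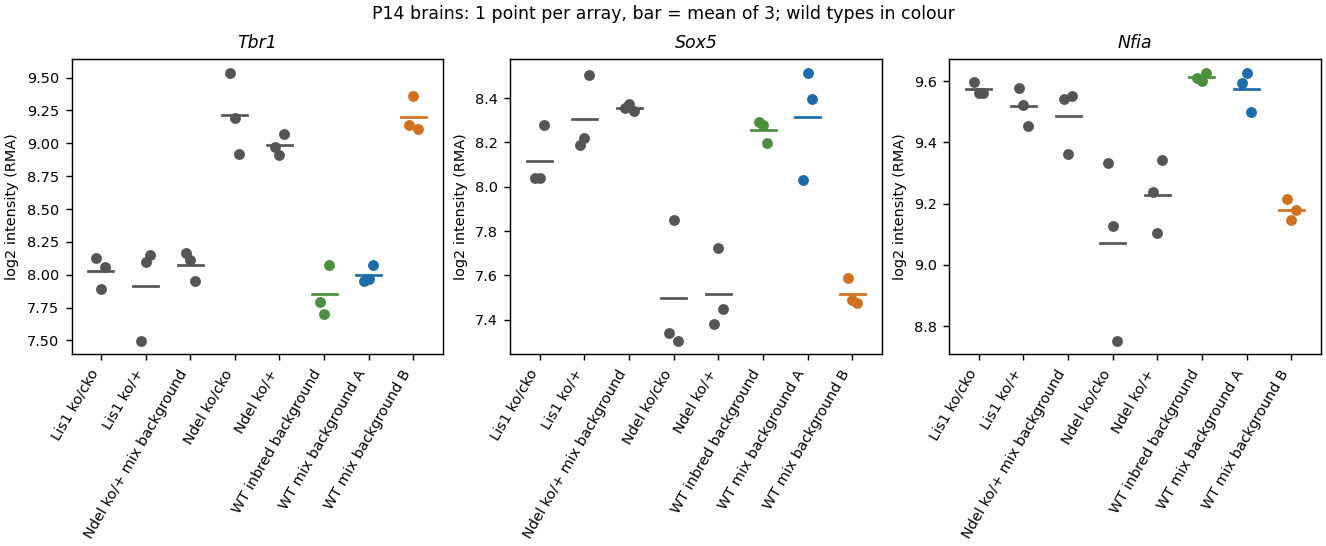
Log2 intensity (y axis) of Tbr1, Sox5 and Nfia in each P14 group (x axis), with 1 point per array, a bar at the mean of 3 and wild types in colour. Tbr1 is high, and Sox5 and Nfia low, in Ndel ko/cko, Ndel ko/+ and WT mix background B, with no array of these groups within the range of the other 5.

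Markers of other cells were read in the same comparison, in which 37.5% of all genes were called higher in mixed A and 15.2% lower. Of 10 striatal markers tested, 7 were higher in mixed A, Drd2 (1.75) and Ppp1r1b (1.67) by most, and none lower. The striatal list was at 7.93 to 8.03 in mixed A arrays, against 6.78 to 7.37 in mixed B, while over all groups the sides overlapped (7.64 to 8.08, against 6.57 to 8.14). Of 5 cortical excitatory markers, Neurod6 (-1.12) and Neurod1 (-0.62) were lower in mixed A and Slc17a7, the vesicular glutamate transporter VGLUT1, was higher (0.87). That list was at 8.72 to 8.84 in mixed A and 8.91 to 9.05 in mixed B. Of 10 astrocyte markers, 5 were higher and 1 lower in mixed A (list level 10.18 to 10.26, against 9.86 to 9.95), and of 8 meningeal markers 4 were higher. Of the 18 other deep-layer genes 3 were higher and 4 lower, and of the 12 upper-layer genes 3 were higher and 4 lower, with Rorb at -1.91. The part of these in the differences of Tbr1, Sox5 and Nfia was not tested. Background and side of the first component cannot be told apart for the mixed wild types.

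The inbred wild type was not called against both mixed wild types for any of the 8 genes, in 16 tests with limma of which 1 had an unadjusted p under 0.05 (1% of all genes called at P0 and 0.244% at P14). Against mixed B alone, Tbr1 was lower (-1.35) and Sox5 (0.74) and Nfia (0.43) higher in the inbred wild type at P14, and at P0 Foxp2 was lower (-0.51) and Sox5 higher (0.52). These 5 calls stand against 48.6% of all genes called at P14 and 45.4% at P0. Against mixed A alone, with which the inbred wild type shared a side of the first component, limma called none of the 8 genes at either age and 1 test had an unadjusted p under 0.05, at P0. Of all genes, 4.2% were called there at P14 and 2.45% at P0.

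The step of Tbr1 from P0 to P14 differed between the mixed wild types. Tbr1 was at 8.18, 8.40 and 8.29 in mixed A at P0 and 8.52, 8.47 and 8.45 in mixed B, so that its P14 arrays lay below those of P0 in mixed A and above them in mixed B. The step in mixed A minus that in mixed B was -1.01 ± 0.34 (adjusted p = 0.0409), where 11.9% of all genes were called. It was not called with no filter on low values (adjusted p = 0.0528), and it was lost when any of the 12 arrays in it but P0 mixed A replicate 1 was left out, in 11 runs (adjusted p up to 0.0984). By the brightest probe sets it was the only call in 96 tests of such differences over the 8 genes. Of these tests 8 had an unadjusted p under 0.05, and 2.13% of all genes' tests were called. Other probe sets were called in the same contrast when every probe set was tested. They were 1 of 4 for Bcl11b (1.29, limma adjusted p = 0.00377), 1 of 6 for Nfia (0.86, adjusted p = 0.0471) and 2 of 7 for Nfib (-1.14 and -0.99, adjusted p = 0.0182 and 0.0286). Those tests covered the steps of the backgrounds and the effects of Lis1, Ndel and Dcx genotypes between ages.

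Genes with the most similar pattern were sought by Pearson correlation over the 26 group means, given as a description because groups share age and array processing. For Tbr1 they were Lztr1 (0.893), Prdm8 (0.874) and Arhgap21 (0.873), for Bcl11b Niban3 (0.983), Dact1 (0.980) and Draxin (0.979), and for Foxp2 Vav3 (0.978), Pdzrn4 (0.974) and Khdrbs2 (0.962). Nfib was closest to Eomes (0.992), Sox5 to Nup85 (0.982), Tle4 to Ssh2 (0.975), Nfia to G630016G05Rik (0.965) and Fezf2 to Nhlrc2 (0.889). After the mean of each age was subtracted, Tbr1 was closest to Neurod6 (0.945), Zbtb18 (0.933) and Hectd2 (0.922), the first of which is a basic helix-loop-helix factor of cortical excitatory neurons. Fezf2 was then closest to Eomes (0.789), Neurod2 (0.754) and Rab3d (0.740), Foxp2 to Insyn2b (0.849) and Sox5 to Llgl1 (0.954). Among the 8 genes themselves Nfia and Nfib were most alike (0.956, and 0.783 less the age means), and Tbr1 and Sox5 least alike less the age means (-0.679).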

How the data were processed

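Per the submitters' processing notes the authors deposited log2 values from RMA. The sources used here state no version of it. Labels list total RNA of mouse brain, Trizol and biotin labelling by in vitro transcription. Of 45101 probe sets, 34945 name 1 gene and were used, 932 name several, 9160 are unnamed and 64 are controls. For each of 18193 genes the brightest probe set on average was taken. Tests kept genes with at least 1 group mean at or over the median of the whole table (5.253): 11743 at E14, 11779 at P0, 12296 at P14, 12864 over the wild types and 13052 over all arrays. The number of arrays limits the precision.

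Tests used limma 3.58.1 in R 4.3.3 with version 1.17.8 of data.table: linear models with empirical Bayes moderation and a trend on the mean level, per age, over the wild types, or over all 78 arrays for differences between steps. Adjusted p-values are Benjamini-Hochberg values over all genes tested, with calls under 0.05. Against both mixed wild types the larger p counts where the signs agree, and 1 otherwise, the difference is the mean of both and the SE the larger. Sorted columns differed by a root mean square of 0.0342 within an age and 0.156 between ages, hence the steps relative to the median gene, while calls were not shifted. The procedure was tested on simulated data.

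All 8 genes are named in every comparison. Of the layer lists up to 3 called genes with the largest rise and 3 with the largest fall are named in a step of development, and up to 2 and 2 in a mutant. Paralogues called in a step are named too, as are the 3 genes most like each of the 8, of which the text gives a part. The 8 genes and the lists were chosen with earlier results of these data known. Lists are described by counts and medians without a test of their own. Replicate numbers did not pair arrays: the mean correlation of same-numbered deviations was -0.035 at E14, -0.007 at P0 and 0.014 at P14. Alternatives were other filters, every probe set, 1 fit of all arrays, quantile normalization, a block on the replicate number, either mixed wild type alone and leaving out each array. Leaving out the 6 E14 arrays of low hindbrain level, or the 2 E14 arrays that kept Ywhae, was chosen after seeing the data.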

Additional observations from a re-analysis of the deposited data

Results flagged for a closer look

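The step of Tbr1 from P0 to P14 differed between the mixed wild types by a test of the difference itself, mixed A minus mixed B, of -1.01 ± 0.34 (limma adjusted p = 0.0409, n = 3 in each of the 4 groups). The call was lost with no filter on low values (adjusted p = 0.0528) and in 11 of 12 runs that left out 1 of its arrays (adjusted p up to 0.0984). All 3 P14 arrays lay below all 3 P0 arrays in mixed A and above them in mixed B. Tbr1 has 1 probe set on the arrays, so no other reading of the gene stands beside it.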

How the results depend on the processing

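Of the counts of called genes over the 8, some moved by more than 1.5 times. Mutants at P0 gave 1 call under a stricter filter (7.627), 2 with every probe set tested, 1 with the replicate block, 10 against mixed A alone and 10 against mixed B alone, in place of 0. Mutants at P14 gave 8 against mixed A alone and 9 against mixed B alone, in place of 0. Differences between steps or ages gave 0 calls with no filter, in place of 1. The ko/cko against ko/+ comparison gave 1 call in 1 fit of all 78 arrays, in place of 2. The step from E14 to P0 gave 6 with mixed A alone, in place of 3, and the inbred against mixed B alone gave 5, in place of 0. The replicate block also called Sox5 between mixed A and mixed B at P0 (adjusted p = 0.0394), and it removed no call.

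With 1 array left out in turn, calls numbered 2 to 5 from E14 to P0, 4 to 5 from P0 to P14 in the mixed and 5 to 6 in the inbred wild type, 0 in mutants at E14, 0 to 2 at P0 and 0 at P14. They numbered 2 between ko/cko and ko/+, 3 to 5 between mixed A and mixed B, 0 for the inbred against the mixed wild types and 0 to 3 for differences between steps. Fezf2 in Ndel ko/cko at P0 was called against both wild types in 4 such runs and Nfib in 5. Of the alternatives of values called for single genes, 1933 kept their call, 68 lost it and 0 turned sign. These values include layer genes named because their called changes were the largest. They also include P0 and P14 comparisons, fitted per age, in runs that left out an array of another age. Such a run could not change the value, so the share kept does not measure how stable the calls were. Of uncalled values, quantile normalization turned the sign of 11 of 332, leaving out 1 array that of 252 of 17532, and leaving out the 6 E14 arrays of low hindbrain level that of 41 of 215. The 17532 and the 215 also include comparisons fitted at another age than that of the arrays left out, where no sign could turn. With mixed A alone the sign turned in 29 of 168 and with mixed B alone in 26 of 168, and without the 2 E14 arrays that kept Ywhae in 2 of 48. In 1 fit of all 78 arrays the calls of Nfia between mixed A and mixed B at P14 (adjusted p = 0.0838) and of Tbr1 in the inbred step (adjusted p = 0.0619) were lost. The causes were not tested.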
